A study of Homo sapiens with 6 samples.

Results

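The HOX cluster genes were followed in TPC-1 cells with and without forced expression of *RRM2*, the regulatory subunit of ribonucleotide reductase. They were taken as all protein-coding genes of the deposited expression table whose symbol is HOXA, HOXB, HOXC or HOXD followed by a number, which gave 39 of the 19951 protein-coding genes and of the 58735 genes in all. Of these 39, 11 lie in the HOXA cluster, 10 in HOXB, 9 in HOXC and 9 in HOXD, and a second entry for *HOXC5*, not marked as protein-coding, was left out. TPC-1 is an established human papillary thyroid carcinoma cell line, and mRNA was sequenced from 3 libraries of the wild strain (TPC-1) and 3 libraries of the line infected with a lentivirus that carries full-length *RRM2* under a CMV promoter and then selected with puromycin (*RRM2*-OE-TPC-1, from here *RRM2*-OE). The wild strain was not infected, and no library of an empty vector was analysed here, so that *RRM2*, infection and selection cannot be told apart. The genotype field of *RRM2*-OE replicates 2 and 3 reads RRM3 and RRM4, while their titles read RRM2. The methods call the 3 libraries of a line biological replicates. The sources used here do not say whether they came from separate cultures or infections, or whether the infected line is a clone or a pool, so the p-values measure only the spread between these libraries.

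HOX genes encode homeodomain transcription factors that give cells their position along the head-to-tail axis of the embryo. They sit in 4 clusters, and genes at the same place in different clusters form paralog groups 1 to 13. Low paralog numbers are the anterior genes, active early and towards the head, and high numbers are the posterior genes. HOX proteins bind DNA with TALE homeodomain cofactors of the PBX, MEIS and PKNOX families. Retinoic acid switches anterior HOX genes on, Polycomb complexes keep them silent by marking histone H3 at lysine 27, and trithorax proteins and demethylases act against that mark. In the pharyngeal region, from which the thyroid arises, the anterior HOX genes pattern the arches, and *HOXA3* is required for the organs that form there, among them the thymus, the parathyroid and the thyroid.

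Expression was given as FPKM, which is fragments scaled to gene length and to sequencing depth, so that levels of different genes can be compared. The FPKM values times gene length were whole multiples of a single step in every library, within 0.1 of a read, so that reads per gene could be recovered, and the 6 libraries held 14317091 to 17084067 reads on genes. Genes that reached 0.5 FPKM and 10 reads in 3 or more libraries, 13621 in all, were tested with limma on log2(FPKM + 0.1), and fold changes on that scale understate the change of genes with low FPKM. A gene was called when its Benjamini-Hochberg adjusted p was 0.05 or less and its log2 fold change was at least 1 in either direction. *RRM2* had a mean of 8.92 ± 0.346 FPKM in the wild strain against 48.4 ± 1.78 FPKM after infection (SD, n = 3), a log2 fold change of 2.43 (limma, adjusted p = 1.11e-08). Of the thyroid markers, *PAX8* was high in both groups at 69.3 and 58.5 mean FPKM. *NKX2-1* had no read, and *TG* had 19 reads in TPC-1 and 44 in *RRM2*-OE. The summed FPKM of 10 thyroid follicular markers was 74.2 to 78.1 in TPC-1 and 64.3 to 67.8 in *RRM2*-OE, and that of 5 epithelial markers was 41.9 to 45.8 and 87.3 to 89.7. The follicular sum was almost all *PAX8*. Of the 3 follicular markers tested, 1 was higher and 2 lower by adjusted p alone, where 34.9% and 32.7% of all tested genes were. The higher one was *HHEX*, at 2.47 and 4.61 mean FPKM (log2 fold change 0.87). The epithelial sum was almost all *KRT18*, and *KRT8* had 2.56 and 3.48 mean FPKM. Of the other epithelial markers, *KRT19* had 1 and 11 reads, *EPCAM* had 2 and 10, and *CDH1* had 24 and 15. The summed FPKM of 6 fibroblast markers was 2.79 to 3.19 and 2.79 to 2.96, that of 5 leukocyte markers 0.349 to 0.410 and 0.135 to 0.215, that of 4 endothelial markers 0.873 to 1.05 and 0.0667 to 0.115, and that of 3 thyroid C cell markers 0.184 to 0.286 and 0.0527 to 0.0724. The endothelial sum in TPC-1 was almost all *PECAM1*, while *VWF* had 3 reads in TPC-1 and 16 in *RRM2*-OE. In TPC-1 the leukocyte sum was *CD14* alone, which had 36 reads there and 13 in *RRM2*-OE. The C cell sum in TPC-1 was mostly *CALCB*, which had 39 reads there and 6 in *RRM2*-OE. *CALCA*, *KDR*, *DCN*, *COL1A2*, *CD3E* and *MS4A1* had no read and *PTPRC* had 2 in all. *KRT18* (41.2 and 85.2 mean FPKM, log2 fold change 1.05, which was 0.99 when scaled to library totals) and *PECAM1* (0.924 and 0.0588 mean FPKM, log2 fold change -2.71, which was -0.86 with a pseudocount of 1) were the markers called, and the part of such cells in the results was not tested. In bulk RNA, fewer cells that express a gene and less RNA per cell cannot be told apart.

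HOX expression in these cells was low and mostly anterior HOXA. Only 15 of the 39 HOX genes had a single read or more in any library, and 24 had none. HOXA took 84.4% of the 1337 HOX reads of the 6 libraries, HOXB 14.7%, HOXC 0.823% and HOXD 0.0748%. Paralog group 3 alone held 60.5% of the HOX reads and group 5 held 15.6%. No read fell on groups 8, 10, 11 and 13, and groups 9 and 12 together had 3 reads. The genes with no read were *HOXA9*, *HOXA10*, *HOXA11* and *HOXA13* in HOXA, *HOXB1*, *HOXB5*, *HOXB6*, *HOXB8* and *HOXB13* in HOXB, *HOXC5* and *HOXC8* to *HOXC13* in HOXC, and every HOXD gene other than *HOXD12*. A count of 0 allows up to 3 reads, which for these genes is 0.0344 to 0.142 FPKM in a library, and this limit covers counting error only. They were therefore not detectable at this depth. The limit takes the full annotated length, and 80.5% of the exon bases of *HOXD4*, 74.1% of *HOXD3*, 59.9% of *HOXC5* and 58.1% of *HOXD1* are shared with other annotated genes. How reads in shared bases were counted is not given in the sources used here, and if they were left out the limit of these genes is higher.

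**Figure D1:**
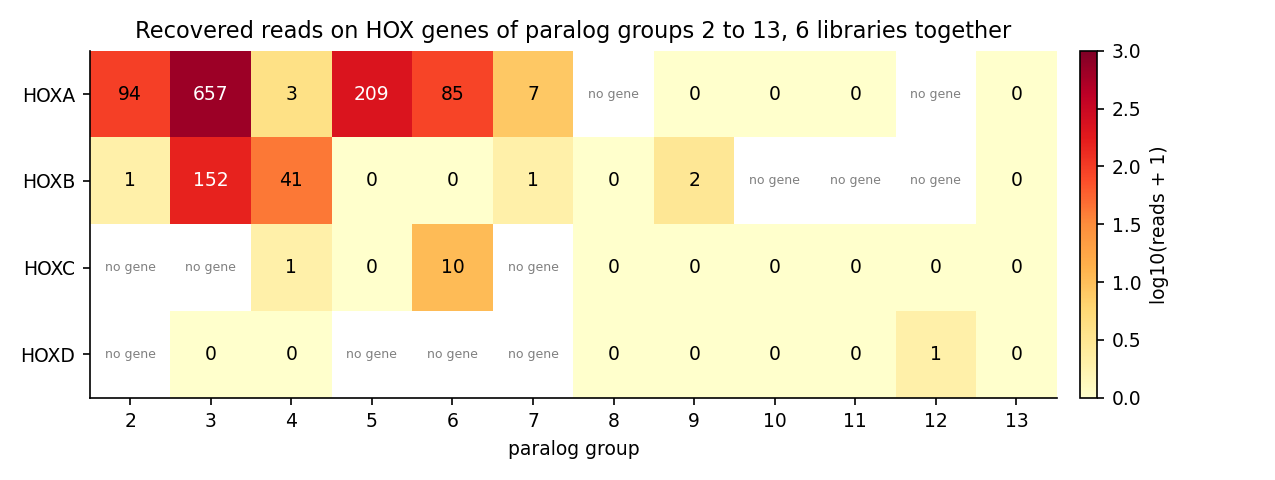
Recovered reads of the HOX genes of paralog groups 2 to 13 summed over the 6 libraries, by cluster (rows) and paralog group (columns), with the colour on a log10(reads + 1) scale and "no gene" where the cluster has none. *HOXA3* has 657 reads, *HOXA5* 209 and *HOXB3* 152, while *HOXA4* between *HOXA3* and *HOXA5* has 3.

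The HOXA cluster, on chromosome 7 of GRCh38, was the most expressed of the clusters. Its summed FPKM was 4.05, 5.22 and 5.93 in TPC-1 replicates 1 to 3, and 3.55, 3.09 and 3.67 in *RRM2*-OE. All *RRM2*-OE libraries lay below all TPC-1 libraries, which was so for 35.0% of all tested genes. The means were 5.07 ± 0.947 and 3.44 ± 0.304 FPKM (SD, n = 3), on 715 and 413 reads. All HOX reads together were at 13.8, 19.6 and 19.0 CPM (reads scaled to library totals) in the TPC-1 libraries and 10.3, 10.5 and 11.5 CPM in the *RRM2*-OE libraries. These groups did not overlap either. *HOXA3* alone held 55.4%, 56.7% and 49.0% of the HOX reads in TPC-1, and 37.8%, 45.6% and 41.5% in *RRM2*-OE. Of the summed FPKM of HOXA, *HOXA3* made up 2.08 of 5.07 in the TPC-1 mean and 1.04 of 3.44 in the *RRM2*-OE mean. *HOXA3* is thus a large part of both sums, which do not show whether the other HOX genes changed. HOXB, on chromosome 17 from 48528526 to 48729178, had a summed FPKM of 0.354 ± 0.0594 and 0.325 ± 0.0808 (SD, n = 3), and its groups overlapped. HOXC had 6 reads in TPC-1 and 5 in *RRM2*-OE, and HOXD had 0 and 1, which allows no comparison.

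From *HOXA2* to *HOXA6* each HOXA gene had reads, with few at *HOXA4*. *HOXA3*, *HOXA5* and *HOXA6* were the only HOX genes that passed the filter for testing, each on values of both groups. The other 36 HOX genes did not reach that minimum. Averaged over the 6 libraries, *HOXA3* lay above 50.6% of all protein-coding genes, many of which had no read, and above 19.8% of the tested genes. *HOXA5* lay above 15.8% and *HOXA6* above 5.70% of the tested genes, so that the HOX genes tested stood near the lower end of what could be tested.

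**Figure D2:**
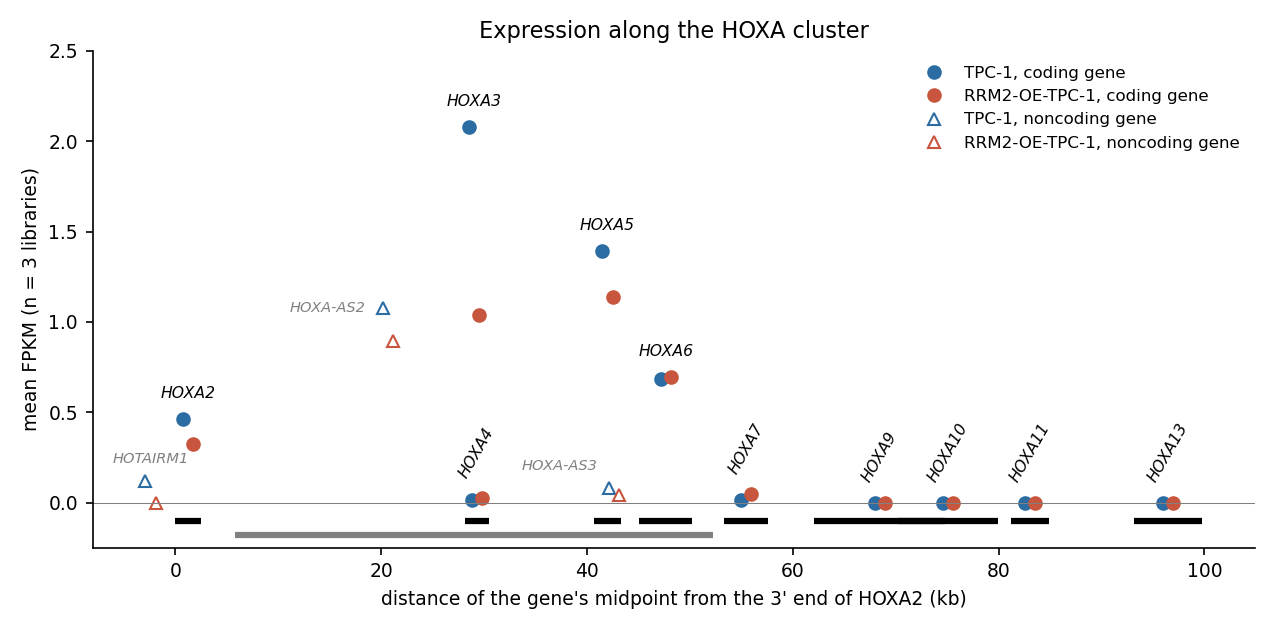
Mean FPKM (n = 3 libraries) of the HOXA genes from *HOXA2* to *HOXA13* and of the noncoding genes of the cluster with reads, against the distance of the gene's midpoint from the 3' end of *HOXA2* in kb. Bars under the axis mark the extent of each coding gene (grey for *HOXA3*, which spans *HOXA4*, *HOXA5* and *HOXA6*), and the TPC-1 and *RRM2*-OE points of *HOXA3* are 2.08 and 1.04 FPKM.

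*HOXA3* (ENSG00000105997, chromosome 7 from 27106184 to 27152581, minus strand) encodes the paralog group 3 factor of the pharyngeal arches, and it was the most expressed HOX gene in TPC-1. Its FPKM was 1.73, 2.46 and 2.05 in TPC-1 replicates 1 to 3 and 0.900, 1.11 and 1.11 in *RRM2*-OE replicates 1 to 3. Every *RRM2*-OE library lay below every TPC-1 library, which was so for 35.0% of all tested genes. The reads were 124, 178 and 141 against 56, 82 and 76. The mean fell from 2.08 ± 0.367 to 1.04 ± 0.121 FPKM (SD, n = 3), a log2 fold change of -0.93 (SE 0.151, 95% interval -1.28 to -0.58, limma, adjusted p = 7.80e-04). *HOXA3* thus passed the threshold on p, as 32.7% of tested genes did in this direction, and did not reach the threshold on the fold change. Without TPC-1 replicate 1 the log2 fold change was -1.05, and *HOXA3* was then called. The groups differed by more than the spread between libraries in each of the 16 fits that were run, with log2 fold changes between -1.05 and -0.59.

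The annotated extent of *HOXA3* runs over *HOXA4*, *HOXA5* and *HOXA6*, because some of its transcripts start upstream of *HOXA6*. Its exons share no base with those of *HOXA5*. They share 374 of their 4306 bases with the antisense gene *HOXA-AS2*, which had 505 reads, and 288 with *HOXA-AS3*, which had 36. The library kit was directional, but whether strand was used in counting is not given in the sources used here, so reads in those bases could belong to either gene. *HOXA-AS2* had 1.08 ± 0.0814 FPKM in TPC-1 against 0.892 ± 0.130 (SD, n = 3), a log2 fold change of -0.26 (limma, adjusted p = 0.146). The table gives 1 value per gene, so which *HOXA3* transcripts were lower was not tested.

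*HOXA5* (ENSG00000106004, 27141052 to 27143668, minus strand), which acts in lung and thyroid development and is often silenced in tumors, was the most expressed HOX gene after *HOXA3*. Its FPKM was 1.12, 1.32 and 1.73 in the TPC-1 libraries and 1.18, 0.958 and 1.29 in the *RRM2*-OE libraries. The groups overlapped, and the lowest and the highest library were of different groups. The log2 fold change was -0.26 (SE 0.177, 95% interval -0.66 to 0.15, limma, adjusted p = 0.230). *HOXA6* (ENSG00000106006, 27145396 to 27150603, minus strand), an axial patterning gene beside it, had 0.560, 0.509 and 0.977 FPKM in TPC-1, against 0.754, 0.545 and 0.782 in *RRM2*-OE. Both the lowest and the highest of the 6 values were in TPC-1, on 11 to 20 reads a library. Its log2 fold change was 0.06 (SE 0.249, 95% interval -0.52 to 0.63, limma, adjusted p = 0.854), and the sign turned in 4 of the fits that left out a library, with the values between -0.10 and 0.31. Of the *HOXA6* exon bases, 505 of 1285 are shared with the antisense gene *HOXA-AS3*.

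*HOXA3* was compared with its neighbours within each library, which takes depth out. This comparison was not planned, and it uses the same *HOXA3* values as above, so it is no separate support. The ratio of *HOXA3* to *HOXA5* FPKM was 1.54, 1.86 and 1.19 in TPC-1 and 0.766, 1.16 and 0.861 in *RRM2*-OE. All ratios of *RRM2*-OE were the lower ones, and the mean log2 ratio differed by -0.72 (two-sided exact permutation test, p = 0.1, the smallest that 3 libraries against 3 can give). The ratio of *HOXA3* to *HOXA6* was 3.08, 4.83 and 2.10 against 1.19, 2.04 and 1.42, a difference of -1.06 in log2 (exact permutation test, p = 0.1, again the smallest possible). In TPC-1 the ratio to *HOXA5* was above 1 in all libraries, although the lowest *HOXA3* and the highest *HOXA5* value were both 1.73 FPKM. In *RRM2*-OE the means of *HOXA3* and *HOXA5*, 1.04 ± 0.121 and 1.14 ± 0.168 FPKM (SD, n = 3), lay within their spread.

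**Figure D3:**
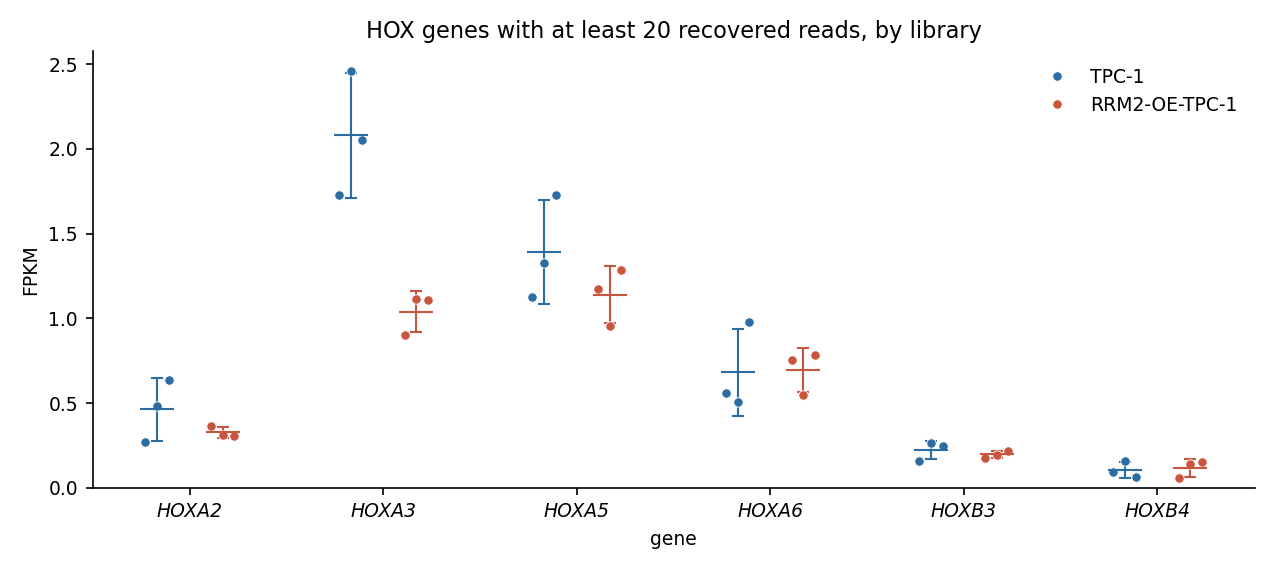
FPKM of 6 HOX genes with at least 20 reads in both groups, with a point for each library and the mean ± SD (n = 3) as a bar, TPC-1 in blue and *RRM2*-OE in red. The groups are apart at *HOXA3* and overlap at the other genes.

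*HOXA2*, the factor that sets the identity of the second pharyngeal arch, had 0.268, 0.484 and 0.638 FPKM in TPC-1, against 0.366, 0.309 and 0.306 in *RRM2*-OE, too few reads for the filter. The *RRM2*-OE values lay inside the TPC-1 range (log2 fold change -0.35 with no filter, limma, adjusted p = 0.489).

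*HOXA4*, within the block, had 1 read in all of TPC-1 and 2 in *RRM2*-OE, and *HOXA7*, next to the block, had 2 and 5. These counts hold no difference that could be read. The lowest of their active neighbours, *HOXA6*, had 43 and 42 reads on a shorter annotated length. Other annotated genes share 47.3% of the exon bases of *HOXA4*, 62.5% of *HOXA7* and 40.1% of *HOXA6*. If reads in shared bases were left out, these counts are too low. The start windows of *HOXA3*, *HOXA4* and *HOXA6* are shown because these neighbours on the same strand differed so widely in reads. They are RefSeq sequences of 300 bases on GRCh38.p14, 250 before and 50 after a start site, minus strand, 5' to 3', with each CpG in capitals, and the *HOXA3* window is that of its most upstream start. Their positions are chr7:27152534-27152833 for *HOXA3*, chr7:27130708-27131007 for *HOXA4* and chr7:27147725-27148024 for *HOXA6*.
HOXA3: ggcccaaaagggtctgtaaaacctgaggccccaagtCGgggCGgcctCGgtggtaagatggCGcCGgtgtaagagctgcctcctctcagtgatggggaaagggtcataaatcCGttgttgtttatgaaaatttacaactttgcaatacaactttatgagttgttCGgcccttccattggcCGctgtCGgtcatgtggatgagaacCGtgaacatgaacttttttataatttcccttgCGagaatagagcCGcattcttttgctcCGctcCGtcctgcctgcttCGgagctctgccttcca
HOXA4: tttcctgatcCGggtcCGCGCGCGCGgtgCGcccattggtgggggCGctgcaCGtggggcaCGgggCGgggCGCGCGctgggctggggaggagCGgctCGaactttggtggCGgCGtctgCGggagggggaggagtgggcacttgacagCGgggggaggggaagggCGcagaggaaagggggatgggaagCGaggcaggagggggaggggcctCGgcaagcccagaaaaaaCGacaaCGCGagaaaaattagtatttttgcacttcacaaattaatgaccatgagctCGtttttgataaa
HOXA6: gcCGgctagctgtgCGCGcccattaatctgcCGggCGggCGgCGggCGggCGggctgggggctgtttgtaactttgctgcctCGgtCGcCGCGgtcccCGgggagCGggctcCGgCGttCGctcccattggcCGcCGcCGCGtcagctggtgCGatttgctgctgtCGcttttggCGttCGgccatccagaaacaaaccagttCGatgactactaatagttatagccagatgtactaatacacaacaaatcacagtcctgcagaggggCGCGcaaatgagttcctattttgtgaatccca

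The *HOXA4* window, whose gene had almost no reads, held 27 CpG dinucleotides, and 28.2% of the 35116 RefSeq windows of this length hold as many. The *HOXA6* window held 29 (24.2% of windows) and the *HOXA3* window 15 (48.9%). Windows were found for 20 of the 39 HOX genes, 27 in all, with a median of 22 CpG against 14 over all windows. *HOXA3* had 7 windows, *HOXA10* had 2, and the others had 1 each, which *HOXC4* and *HOXC5* share. The *HOXA3* windows held 0 to 29 CpG, so its place beside *HOXA4* and *HOXA6* depends on the start chosen. A composite motif of PBX with HOX, TGATNNAT, searched on both strands, was in the windows of *HOXA2*, *HOXB1* and *HOXD11* and in 7.40% of all windows. The MEIS motif TGACAG was in those of *HOXA2*, *HOXA4*, *HOXA13* and *HOXD4* and in 15.8% of all windows. In the *HOXA4* window printed above it reads tgacag, while neither motif was in those of *HOXA3* and *HOXA6*. Such matches describe letters and show no binding.

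In HOXB the reads were on *HOXB3* and *HOXB4*, the paralogs of *HOXA3* and *HOXA4*. *HOXB3*, the highest HOXB gene, lies on chromosome 17 from 48548870 to 48604912 and had 20, 33 and 29 reads in TPC-1 against 19, 25 and 26. Its mean was 0.223 ± 0.0545 FPKM in TPC-1, against 0.197 ± 0.0213 in *RRM2*-OE (SD, n = 3), with overlapping groups (log2 fold change -0.11 with no filter, limma, adjusted p = 0.814). *HOXB4*, known for its role in blood stem cells, had 20 and 21 reads and 0.107 and 0.115 mean FPKM. So within paralog group 4 HOXB held nearly all the reads, whereas in groups 2, 3, 5 and 6 HOXA held most. Of the rest of HOXB, *HOXB2* had 1 read, *HOXB7* had 1 and *HOXB9* had 2. *HOXC6*, the highest HOXC gene, had 5 reads in each group, *HOXC4* had 1 read and *HOXD12*, the highest HOXD gene, had 1. Some exons of *HOXB3* and *HOXB4*, and of *HOXC4* and *HOXC6*, are shared on the same strand, so reads there could belong to either gene.

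Summed by paralog group over groups 2 to 7, group 3 had the widest gap between the lines in FPKM, from 2.30 ± 0.418 to 1.24 ± 0.139 FPKM (SD, n = 3), on 525 and 284 reads. Group 2 had 0.472 and 0.327 mean FPKM. Group 4 had 0.126 and 0.138, group 5 had 1.39 and 1.14, and group 6 had 0.710 and 0.722. Group 7 had 0.0169 and 0.0579 mean FPKM, on 2 and 6 reads. Of groups 2, 3 and 5, whose mean sums were lower in *RRM2*-OE, the libraries overlapped in groups 2 and 5 and did not in group 3.

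By the test over all genes, 0 of the 3 tested HOX genes were called higher and 0 lower, where 4.48% of all tested genes were called higher and 6.97% lower. By the adjusted p alone, 0 were higher and 1 lower, where 34.9% of tested genes were higher and 32.7% lower. At an unadjusted p of 0.05 or less limma gave 1 of the 3 genes, *HOXA3*. Voom gave the same gene on reads recovered from the same values, which is no separate support. The share of all tested genes at that threshold was not counted. For limma it cannot be below the 34.9% higher and 32.7% lower that passed the adjusted p. The groups did not overlap for 1 of the 3 genes, against 35.0% of tested genes lower and 37.3% higher in *RRM2*-OE. The median log2 fold change of the 3 genes was -0.26, beside 0.01 over all tested genes. With 3 genes this share was near the background, and no statement on the HOX genes as a whole can be drawn from it.

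Of 18 noncoding genes of the clusters listed, *HOXA-AS2* alone was tested. It had 505 reads, more than *HOXA5* or *HOXA6*, on a longer annotated length (5281 bases against 1707 and 1285). Its mean over the 6 libraries was 0.985 FPKM, below that of *HOXA5* (1.27) and above that of *HOXA6* (0.688). *HOTAIRM1*, at the anterior end of HOXA, which follows retinoic acid in myeloid cells, had 1, 4 and 4 reads in TPC-1 and 0 in every *RRM2*-OE library. Set against a limit of 3 reads over the *RRM2*-OE group, its level in TPC-1 was 2.88-fold higher. This ratio takes the 9 TPC-1 reads as exact and leaves out their counting error, so it is no lower bound on the difference. *HOXA-AS3* had 24 reads in TPC-1 and 12 in *RRM2*-OE.

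*PBX3*, *PBX2*, *MEIS3*, *PKNOX1* and *MEIS2*, TALE cofactors, had a higher mean FPKM over the 6 libraries than any HOX gene. Of 9 listed, 5 were tested, 0 were called higher and 1 lower, and by adjusted p alone 1 was higher and 4 lower, with a median log2 fold change of -0.39. For these and the lists that follow, 4.48% of all tested genes were called higher and 6.97% lower, and 34.9% and 32.7% passed the adjusted p. *MEIS3*, which partners with PBX and HOX proteins in the hindbrain, had 9.35, 8.87 and 8.07 FPKM in TPC-1, against 1.23, 1.08 and 1.16 in *RRM2*-OE. The lines were far apart on every library. The mean fell from 8.76 ± 0.644 to 1.16 ± 0.0734 FPKM (SD, n = 3), a log2 fold change of -2.82 (SE 0.0835, limma, adjusted p = 9.91e-08), and all 15 alternatives kept the call. *PBX3* was the highest TALE gene, at 31.2 and 36.9 mean FPKM (log2 fold change 0.24, limma, adjusted p = 3.86e-04). *PBX2* (log2 fold change -0.52), *MEIS2* (-0.39) and *PKNOX1* (-0.37) were lower at an adjusted p of 0.05 or less from limma, and none of them reached a log2 fold change of 1. *MEIS1* and *PBX4* were under the filter and *PKNOX2* had no read. The 9 ParaHox and HOX-linked homeobox genes had no tested member, and *MNX1*, the highest of them, had 0.216 and 0.428 mean FPKM.

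**Figure D4:**
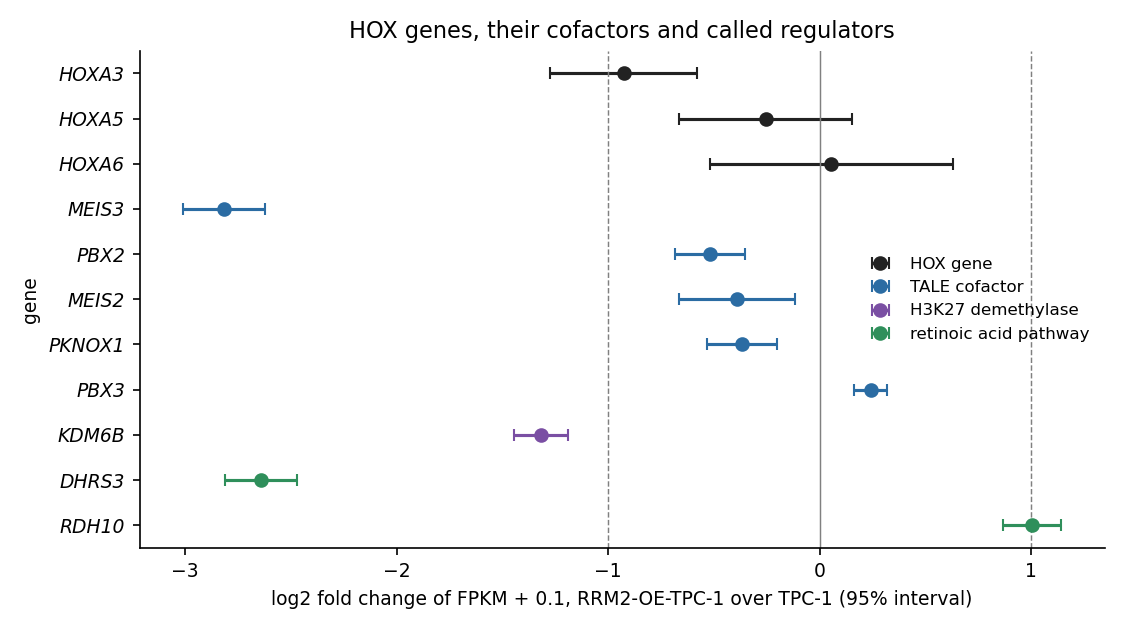
Log2 fold change of FPKM + 0.1, *RRM2*-OE over TPC-1, with its 95% interval from limma (n = 3 libraries a group), for the 3 tested HOX genes, the 5 tested TALE cofactors and the called genes of the trithorax and retinoic acid lists. Dashed lines mark the threshold of 1, which *MEIS3* (-2.82), *DHRS3* (-2.64), *KDM6B* (-1.32) and *RDH10* (1.00) pass and *HOXA3* (-0.93) does not.

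Retinoic acid is a classical inducer of the anterior HOX genes. Of 18 genes of its pathway, 10 were tested, with 1 called higher and 1 lower. By adjusted p alone 2 were higher and 6 lower (median log2 fold change -0.32). *DHRS3*, which turns retinaldehyde back into retinol, fell from 17.8 ± 1.49 to 2.77 ± 0.148 FPKM (SD, n = 3; log2 fold change -2.64, limma, adjusted p = 7.62e-08). *RDH10*, which makes retinaldehyde from retinol, rose from 6.91 ± 0.230 to 13.97 ± 0.955 FPKM (SD, n = 3; log2 fold change 1.00, limma, adjusted p = 2.61e-06). It stood at the threshold, and its log2 fold change was 0.98 without TPC-1 replicate 3, 0.96 without *RRM2*-OE replicate 1 and 0.99 without *RRM2*-OE replicate 3, where the call was lost. The binding protein *CRABP2* was the highest gene of the list, at 18.0 and 12.6 mean FPKM (log2 fold change -0.51, limma, adjusted p = 3.40e-04). Of the receptors, *RARA* (-0.26), *RARG* (-0.61) and *RXRB* (-0.73) were lower by adjusted p and *RXRA* had -0.03. *RARB*, a gene that retinoic acid induces, had 9 reads in all and *CYP26A1*, which degrades retinoic acid, had none. *CYP26B1*, of the same family, had 7.87 and 8.16 mean FPKM (log2 fold change 0.05, limma, adjusted p = 0.432). *ALDH1A3*, also of the list, had 2.95 and 4.39 mean FPKM (log2 fold change 0.56, limma, adjusted p = 4.27e-04).

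All listed chromatin regulators of the HOX clusters passed the filter. Of the 27 Polycomb genes, 27 were tested and none was called by limma, while 7 were higher and 11 lower by adjusted p alone, with a median log2 fold change of -0.08. *PHC2* was the highest of them, at 53.4 and 39.5 mean FPKM (log2 fold change -0.43), and the methyltransferase *EZH2* had 0.21. The log2 fold changes of the 27 genes ran from -0.92 (*CBX7*) to 0.94 (*EED*). Of the 14 trithorax and demethylase genes, 0 were called higher and 1 lower, with 5 and 6 by adjusted p alone (median -0.06). *KDM6B*, which removes the Polycomb mark from histone H3, had 11.4, 11.0 and 11.3 FPKM in TPC-1, against 4.19, 4.43 and 4.69 in *RRM2*-OE. Its log2 fold change was -1.32 (SE 0.0552, limma, adjusted p = 4.91e-07), and all 15 alternatives kept the call. *WDR5*, a core trithorax subunit, was the highest of the list, at 27.3 and 39.8 mean FPKM (0.55 in log2).

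Over the 6 libraries, 15 of the genes that flank the clusters had a higher mean FPKM than any HOX gene, and *TTLL6*, *SKAP1* and *PRAC1*, which did not pass the filter, were not. Of 18 found, 15 were tested, 0 were called higher and 1 lower, and 7 were higher and 5 lower by adjusted p alone, with a median log2 fold change of 0.07. *SKAP2*, on the anterior side of HOXA, had 4.61 and 6.31 mean FPKM (log2 fold change 0.45, limma, adjusted p = 2.52e-04), a direction opposite to that of *HOXA3*. *HIBADH*, on the posterior side, had 27.4 and 15.4 mean FPKM (log2 fold change -0.83, limma, adjusted p = 3.43e-06), the same direction as *HOXA3*. *SNX10* (-0.13) and *TAX1BP1* (0.07), which also flank HOXA, did not pass the adjusted p. *CALCOCO1*, which flanks HOXC, was the called gene, with 9.27 ± 0.528 and 3.96 ± 0.225 FPKM (SD, n = 3; log2 fold change -1.21, limma, adjusted p = 1.79e-06). *HNRNPA1*, beside HOXC as well, was the highest at 197 and 249 mean FPKM, although HOXC itself was almost without reads.

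Among the other 153 protein-coding homeobox genes, a group taken from the table's transcription factor family column after values had been seen, 75 had a read and 42 were tested. Of these 42, 0 were called higher and 5 lower, where 4.48% and 6.97% of all tested genes were called. By adjusted p alone 10 were higher and 21 lower, where 34.9% and 32.7% of all tested genes were, and the median log2 fold change was -0.27. Among those called were *MEIS3*, *SIX4* (-1.18), *SIX5* (-1.09) and *DLX4* (-1.29). The call of *SIX5* was lost when *RRM2*-OE replicate 3 was left out (-0.97). With a pseudocount of 1 the calls of *SIX4* (-0.89), *SIX5* (-0.86) and *DLX4* (-0.91) were lost. *SIX5* overlaps 2 expressed antisense genes and shares 2020 of its 3556 exon bases with 1 of them. Of the 39 HOX genes 15 had a read and 3 were tested.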

How the data were processed

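mRNA of 3 TPC-1 and 3 *RRM2*-OE-TPC-1 libraries was sequenced with a directional kit. The methods describe poly(A) selection, while per the labels ribosomal RNA was removed and RNase R was used. The authors aligned reads with HISAT2 2.0.5, counted them per gene with featureCounts 1.5.0 and deposited FPKM, that is counts divided by gene length and depth. The submitters' processing notes name GRCh38.p14, and all 58735 positions were those of GENCODE 29 on GRCh38. Depth was 14317091 to 17084067 reads on genes.

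Reads were recovered from the FPKM steps. Log2(FPKM + 0.1) was tested with limma 3.58.1 (lmFit, eBayes with trend) in R 4.3.3, two-sided, over 13621 genes, after a check on simulated data. Python 3.11.15 was used for the rest, and adjustment was by Benjamini-Hochberg. The deposited unit is FPKM, so limma on log2 values was the main test in place of the study's count model, and voom on the recovered reads was an alternative. Named were *RRM2*, the HOX genes, and from each list the called genes and the highest one. *EZH2*, *EED*, *CBX7*, *SKAP2*, *MNX1*, the further markers, flanking genes, retinoic acid genes, cofactors, receptors and homeobox genes were named after values were seen. The HOX genes and the lists were chosen with earlier results of these data known. Alternatives changed filter, pseudocount, scaling, test and threshold, added a replicate block, or left out a library. Some genes of the rule and the lists are not reported here.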

Additional observations from a re-analysis of the deposited data

How the results depend on the processing

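The results on the HOX genes kept their direction and their side of the threshold under most alternatives. *HOXA3* was lower in all fits, with log2 fold changes from -1.05 to -0.59 and adjusted p from 5.65e-06 to 0.00567 from limma, and it passed the threshold on the fold change without TPC-1 replicate 1 only. Leaving out 1 library gave 0 to 1 HOX genes called lower, 0 called higher, and 1573 to 1608 genes called in all against 1560. By adjusted p alone, 1 HOX gene was lower and 9207 genes of all passed. With a pseudocount of 1, 716 genes were called. With a minimum of 30 reads *HOXA6* dropped out, and the median log2 fold change of the 2 genes left was -0.59. The log2 fold change of *HOXA6* ranged from -0.10 to 0.31 with a library left out. Over the tested genes alone, the summed FPKM of HOXA in *RRM2*-OE was 2.87. HOXB had no tested gene and so no such value. With library totals as scale, the median of all genes was -0.045. *RDH10* lost its call with that scale (0.95) and with a pseudocount of 1 (0.92).

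With the replicate number as a replicate block, 1566 genes were called, 0 HOX genes were called, and *HOXA3* had a log2 fold change of -0.93 (limma, adjusted p = 8.16e-04). After the mean of its group was taken off each gene, same-numbered libraries of the 2 lines correlated at -0.011, -0.006 and -0.055 over genes. No effect shared by same-numbered libraries was thus seen, which does not show how the libraries were prepared. Depth limits the 36 untested HOX genes, and with 3 libraries a group a single value cannot pass an exact test.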
